A study of Mus musculus with 81 samples.

Results

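The complement system was described here through 10 genes measured in mouse hippocampal area CA1, listed by name as components, receptors and the inhibitor of the cascade: C1qa, C1qb, C1qc, C3, C4b, Cfb, C3ar1, Itgam, Itgb2 and Serping1. All 10 were found in every count table, among 55536 genes in the depletion experiment, 20801 in the fear conditioning experiment with virus and 24500 in mice without virus. RNA was sequenced in 26 libraries from male C57BL/6J mice, and macroH2A (mH2A) chromatin domains were called in 30 chromatin immunoprecipitation (ChIP) libraries. In the depletion experiment CA1 received an adeno-associated virus carrying a short hairpin RNA (shRNA) against H2afy, which encodes mH2A1 (shH2afy, n = 3), against H2afy2, which encodes mH2A2 (shH2afy2, n = 3), or with a scrambled sequence (shScr, n = 3). A further experiment crossed virus with training: shH2afy trained, shH2afy untrained, shScr trained and shScr untrained (n = 3 each), where trained mice were taken 1 h after contextual fear conditioning and untrained mice came from the home cage. Mice without virus, called intact below, were trained (n = 2, taken 1 h after fear conditioning) or untrained (n = 3). Every injected mouse, shScr included, had surgery and a virus that drives the shRNA from the U6 promoter in whichever cells it infects, with green fluorescent protein, and the fluorescent tissue was dissected. Each group had as many mice as libraries in the study's methods, so a library is called a mouse below.

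Complement is a cascade of proteins that marks targets for removal by phagocytes. C1q, built from the C1qa, C1qb and C1qc chains and made in brain largely by microglia, starts the classical pathway, C4b and C3 are cleaved and deposited on the target, and factor B (Cfb) amplifies the deposition. Fragments of C3 are read by C3ar1 and by complement receptor 3, the pair of Itgam (CD11b) and Itgb2 (CD18) on microglia and other myeloid cells, and C1 inhibitor (Serping1) blocks the proteases of C1. In the developing and the injured brain this pathway is known for tagging synapses that microglia then engulf.

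Positions are those of mm10 with the GENCODE vM21 annotation. The C1q genes form a cluster on the minus strand, C1qb at chr4:136880129-136886187, C1qc at chr4:136889804-136893065 and C1qa at chr4:136895917-136898803. On chromosome 17 lie C4b (chr17:34728380-34743882), Cfb (chr17:34856374-34862518) and C3 (chr17:57203970-57228136), all on the minus strand. C3ar1 is at chr6:122847138-122856161 and Serping1 at chr2:84765387-84775444, both on the minus strand, while Itgam (chr7:128062640-128118491) and Itgb2 (chr10:77530252-77565708) are on the plus strand. Of the exon bases of Cfb, 79.5% are shared with Gm20547 on the same strand, and C4b has a near-identical neighbour, C4a, so the counts of Cfb and C4b are less certain than the others. Itgam overlaps Gm49368 on its own strand.

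Promoters are shown because these genes moved together in RNA and because the starts of C1qb, Itgam and C3 lay under mH2A1 domains in all 10 libraries taken at 6 h, as described at the end. RefSeq (GRCm38.p6) gave promoters for 5 of the 10 members, and the 250 bases before the start of C1qb, Itgam and C3 follow, with matches to the PU.1 core GAGGAA in capitals on either strand (TTCCTC on the opposite one). PU.1 is the factor that sets the myeloid programme.
C1qb promoter, chr4:136886201-136886450, minus strand: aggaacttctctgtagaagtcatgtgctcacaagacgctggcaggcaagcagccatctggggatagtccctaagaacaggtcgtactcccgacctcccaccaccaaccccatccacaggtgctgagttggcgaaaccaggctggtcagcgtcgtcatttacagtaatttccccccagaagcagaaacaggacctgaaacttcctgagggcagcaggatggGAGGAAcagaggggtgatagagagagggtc
Itgam promoter, chr7:128062390-128062639, plus strand: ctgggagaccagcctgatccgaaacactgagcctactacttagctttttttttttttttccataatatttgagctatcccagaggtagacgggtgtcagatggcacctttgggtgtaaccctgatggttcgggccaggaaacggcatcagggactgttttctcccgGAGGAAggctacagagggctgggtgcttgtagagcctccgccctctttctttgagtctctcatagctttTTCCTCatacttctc
C3 promoter, chr17:57228137-57228386, minus strand: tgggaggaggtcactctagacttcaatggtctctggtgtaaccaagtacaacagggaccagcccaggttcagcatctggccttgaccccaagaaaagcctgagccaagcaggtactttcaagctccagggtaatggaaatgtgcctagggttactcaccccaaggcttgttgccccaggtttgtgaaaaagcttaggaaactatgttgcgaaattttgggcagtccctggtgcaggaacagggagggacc
The match in C1qb lay 30 to 25 bases before the start, and those in Itgam lay 84 to 79 and 15 to 10 bases before it. A match was also present in C1qc, and none was found in C3 or C3ar1, while 23.3% of 32851 promoters of this length held the core. The interferon-stimulated response core GAAANNGAAA (2.98% of promoters) and the STAT motif TTCNNNGAA (7.02%) had no match in the 5 promoters, and the NF-kB consensus (3.90%) had 1, in C1qc. These matches describe letters in a window and were not tested as binding sites.

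Levels are given as CPM, the counts of a gene scaled to a library of 1 M counts, and corrected within each experiment by the trimmed mean of M values (TMM). Total counts ran from 9.95 to 18.8 M per library in the depletion experiment, from 81.4 to 92.2 M in the fear conditioning experiment with virus and from 48.8 to 58.7 M in intact mice, and libraries of a group differed by more than counting noise throughout. The targeted genes were checked first. In the depletion experiment H2afy had 43.2, 45.1 and 39.3 CPM with shH2afy, against 60.9, 58.3 and 52.9 CPM with shScr, a log2 fold change of -0.37 ± 0.10 (SE) whose adjusted p of 0.031 (edgeR) missed the threshold of 0.01. H2afy2 had 13.3, 8.07 and 7.59 CPM with shH2afy2, against 18.3, 18.7 and 19.0 CPM with shScr (log2 fold change -0.95 ± 0.22, adjusted p = 0.0907, edgeR). In the fear conditioning experiment H2afy was not lower in the libraries labelled shH2afy: they had 87.1 to 99.5 CPM, against 78.3 to 86.7 CPM in shScr libraries (log2 fold change 0.16 in trained and 0.13 in untrained mice). That table counted reads over whole transcripts, introns included, and the directions below are those of the libraries as labelled.

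The C1q genes led the group in mice with the scrambled shRNA already. Per kb of exon, C1qb had 41.9 and C1qa 39.9 CPM in shScr mice of the depletion experiment, followed by C1qc (18.6), C4b (7.29), Itgb2 (1.95), Itgam (1.66), Serping1 (1.42), C3ar1 (0.375), C3 (0.327) and Cfb (0.0163). C1qa and C1qb changed places in shH2afy mice, at 731 and 616 CPM per kb, a gap smaller than the spread between the shH2afy mice. C3, at 59.5 CPM per kb there, came next after C4b, above both integrins, while in shScr mice only Cfb was lower.

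All 10 genes had higher levels in every shH2afy mouse than in any shScr mouse of the depletion experiment, among them C3, the central component. C3 had 353, 398 and 167 CPM in the shH2afy mice, against 3.81, 0.374 and 0.854 CPM in the shScr mice. Every shH2afy mouse was more than an order of magnitude above every shScr mouse. The fitted fold change was 186 (log2 7.54 ± 0.74, edgeR). It rested on few shScr counts, and the log2 value was 9.07 without shScr replicate 1 and 6.93 without shScr replicate 2. C3 met the minimum of the low-count filter in 2 of the 3 shScr mice and entered the test only through the shH2afy mice. No p or rank is therefore given for it here.

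The C1q chains moved nearly as one. C1qa had 856, 1059 and 367 CPM with shH2afy, against 54.4, 29.9 and 40.0 CPM with shScr. C1qb had 760.1, 866 and 386 CPM with shH2afy, against 51.4, 32.1 and 53.1 CPM with shScr, and C1qc had 627, 722 and 299 CPM, against 45.5, 28.8 and 33.7 CPM. In each of the chains the groups did not overlap and shH2afy replicate 3 was the lowest of its group. Fold changes were 19.3 for C1qa, 15.4 for C1qb and 16.0 for C1qc, with adjusted p between 0.000392 and 0.000598 (edgeR).

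C4b, which forms the classical C3 convertase, had 915, 1002 and 647 CPM with shH2afy, against 70.0, 17.3 and 37.3 CPM with shScr, a fold change of 21.6 (adjusted p = 0.000881, edgeR). Cfb, of the alternative pathway, had 5.98, 8.45 and 1.66 CPM with shH2afy, against 0.139, 0 and 0 CPM with shScr. Only 2 Cfb counts were made in all shScr mice, against 260 in the shH2afy mice, a ratio of 111 with a 95% counting interval from 30.4 to 921, which takes in the fold change of C3. The interval covers counting error only. Cfb met the minimum of the low-count filter in 0 of the 3 shScr mice and entered the test only through the shH2afy mice, so no p is given for it here.

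The receptors rose as well. C3ar1, which binds the fragment C3a, had 52.8, 66.9 and 25.1 CPM with shH2afy, against 2.49, 1.497 and 0.854 CPM with shScr, a fold change of 30.1 (adjusted p = 0.000486, edgeR). Itgam had 99.5, 83.4 and 70.6 CPM, against 10.1, 6.05 and 8.86 CPM with shScr, and Itgb2 had 119.7, 145 and 57.9 CPM, against 7.76, 4.24 and 5.87 CPM. Itgam thus had the smallest of the fitted fold changes, 10.7, and the smallest adjusted p, 0.000153 (edgeR), while its partner Itgb2 had a fold change of 19.0. Serping1, the inhibitor, rose with the components it restrains, with 87.4, 96.5 and 43.2 CPM, against 3.39, 3.43 and 3.09 CPM with shScr (fold change 23.8, adjusted p = 0.000215, edgeR).

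**Figure D1:**
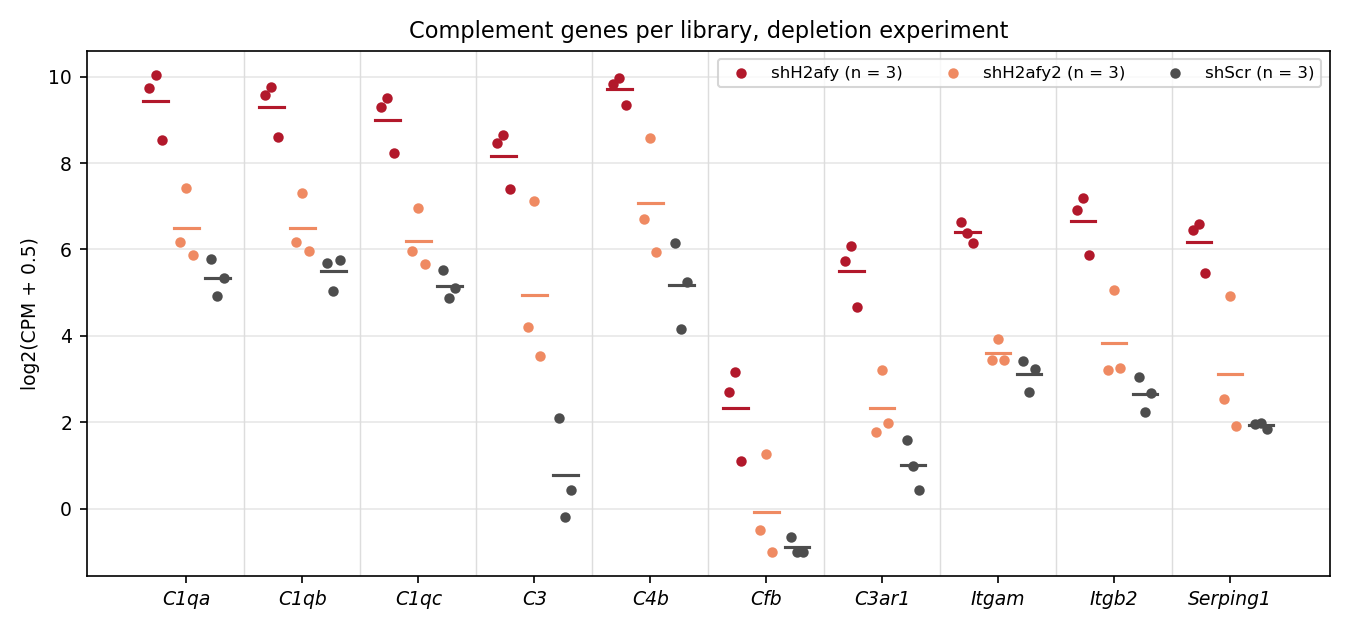
Level of each complement gene in every mouse of the depletion experiment, as log2(CPM + 0.5), for shH2afy, shH2afy2 and shScr (n = 3 each); points are mice and bars are means of the log values. The shH2afy mice lie above the shScr mice in all 10 genes, and shH2afy2 replicate 2 is the highest shH2afy2 mouse in all 10.

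Of all 16179 genes tested, 10.5% passed as higher, where passing took a fold change above 2 with an adjusted p under 0.01 (edgeR). Of the 8 members that met the minimum of the low-count filter in all shScr mice, 8 passed as higher. C3, which met it in 2 of the 3 shScr mice, and Cfb entered the test through the shH2afy mice and are left out of this count. In all of these 8 the groups did not overlap with shH2afy above, against 26.7% of all genes. The median log2 fold change was 4.35 over the 10 members, C3 and Cfb included, against 0.0072 over all genes. In bulk tissue, more cells of a type and more RNA per cell cannot be told apart, so marker lists are given beside these values. The share of mitochondrial counts also differed without overlap, at 2.71 to 3.38% with shH2afy, against 3.87 to 6.25% with shScr, and its part was not tested. Homeostatic microglial markers, Tmem119 and P2ry12 among them, passed as higher in 11 of 12, with a median log2 fold change of 1.99, and their summed level was 1598 to 2189 CPM with shH2afy, against 356 to 527 CPM with shScr. Markers of monocytes, neutrophils and border macrophages passed as higher in 6 of 7 tested of 11, at a summed 148 to 824 CPM, against 5.68 to 19.5 CPM, with Ly6g at 0 in all 9 libraries. Reactive astrocyte markers passed as higher in 8 of 8 (4777 to 6102 CPM, against 324 to 733 CPM) and CA1 neuron markers as lower in 2 of 7 (1905 to 3720 CPM, against 4523 to 6691 CPM). B and plasma cell genes summed to 0.554 CPM in shH2afy replicate 3 and to 838 CPM in replicate 2, the highest, against 0.374 to 1.28 CPM with shScr. T and NK cell genes overlapped, at a summed 6.17 to 63.3 CPM with shH2afy, against 0.554 to 21.8 CPM with shScr. The part of these cell types in the complement levels was not tested.

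The level of C1q was also set against the microglial markers within each mouse. The summed CPM of C1qa, C1qb and C1qc divided by that of the 12 homeostatic markers was 1.05, 1.21 and 0.658 with shH2afy, 0.439, 0.596 and 0.344 with shH2afy2, and 0.287, 0.255 and 0.295 with shScr. The groups did not overlap in any of the 3 pairs, and each difference had the smallest p that 3 against 3 mice allow, 0.1 (exact two-sided permutation test). The ratio with shH2afy was 3.38 times that with shScr, the ratio with shH2afy2 was 1.61 times that with shScr, and the ratio with shH2afy was 2.10 times that with shH2afy2 (geometric means). Marker RNA per microglial cell and C1q RNA from other cells were not measured. Whether the ratio reflects C1q RNA per microglial cell was therefore not tested.

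**Figure D2:**
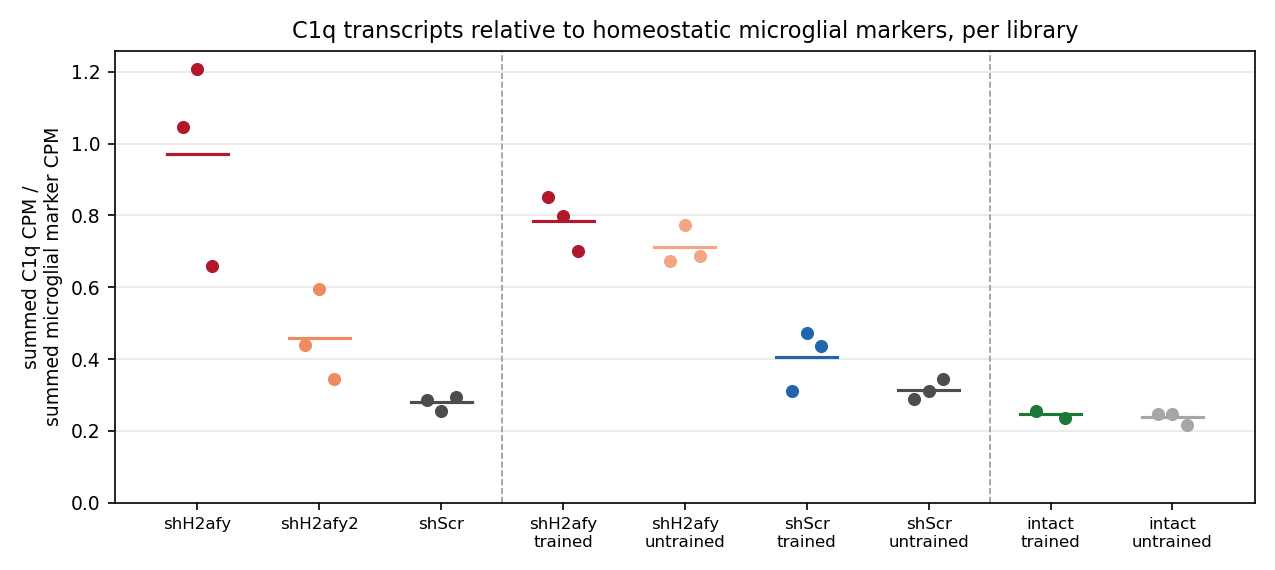
Summed C1q CPM divided by the summed CPM of 12 homeostatic microglial markers, 1 point per mouse with the group mean as a bar, in the depletion experiment (left), the fear conditioning experiment with virus (middle) and intact mice (right). The shH2afy means are 0.971, 0.784 (trained) and 0.712 (untrained), each above its shScr mean of 0.279, 0.407 and 0.315.

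With shH2afy2, set against the same 3 shScr libraries, the 9 testable members had fitted levels above those with shScr, but 0 passed. C3 had 18.0, 139 and 11.1 CPM in the shH2afy2 mice, against 3.81, 0.374 and 0.854 CPM in the shScr mice, a log2 fold change of 5.03 ± 1.23 (edgeR). Here too C3 met the minimum of the low-count filter in 2 of the 3 shScr mice and entered the test through the shH2afy2 mice, so no p is given for it. C1qa had 72.2, 171 and 57.6 CPM, against 54.4, 29.9 and 40.0 CPM (log2 fold change 1.28 ± 0.42, adjusted p = 0.157, edgeR). Replicate 2 stood out in both genes. It was the highest shH2afy2 mouse in all 10 members, at a median of 3.22 times the mean of its mates, and its monocyte list (124 CPM, against 15.9 and 26.5 CPM in its mates) and B and plasma cell list (148 CPM, against 0.486 and 0.736 CPM) were highest too.

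Cfb was too low for this test, with 0.208, 1.90 and 0 CPM in shH2afy2 mice, or 39 counts against 2 (ratio 15.2, 95% counting interval 3.94 to 130). Of the 39 counts, 36 came from replicate 2, and the interval leaves out differences between mice. The other 9 members had log2 fold changes from 0.52 (Itgam) to 5.03 (C3). C3 aside, none had an adjusted p under 0.0992 and the highest was 0.269 (edgeR). Of the 8 that met the minimum of the low-count filter in all shScr mice, all but C4b and Serping1 did not overlap between groups, with shH2afy2 above, against 13.9% of all genes. By edgeR 0 of 15609 genes passed, while 3238 had an unadjusted p under 0.05. DESeq2, after the same filter, passed 122 genes. The only member among them was C3, which entered through the shH2afy2 mice. In the paper's own list of genes raised by both depletions, C1qc is the member named and C3 is absent. Without a filter on low counts edgeR passed 327 genes, with 8 members among them. Without replicate 2 the log2 fold change of C3 was 3.08 and that of C1qa 0.65, and no member passed.

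The direct comparison of the depletions, which reuses the shH2afy and shH2afy2 libraries, gave a log2 fold change above 0 in each member. C3ar1 had 52.8, 66.9 and 25.1 CPM with shH2afy, against 2.92, 8.70 and 3.45 CPM with shH2afy2, the largest fold change of the members at 9.49 (adjusted p = 0.00412, edgeR). Itgam had 99.5, 83.4 and 70.6 CPM, against 10.3, 14.8 and 10.4 CPM, a fold change of 7.12 (adjusted p = 0.00143, edgeR). C1qa, C1qb and C1qc passed as well, with fold changes of 7.58, 6.88 and 6.99. C3, C4b, Itgb2 and Serping1 did not pass, with fold changes between 4.67 and 7.31 and adjusted p between 0.0121 and 0.0735 (edgeR). Cfb met the minimum of the low-count filter in 1 of the 3 shH2afy2 mice and entered the test through the shH2afy mice, so no p is given for it. Of the 9 members that met it in all shH2afy2 mice, 5 passed, against 7.96% of 16294 genes as higher. In these 9 the groups did not overlap with shH2afy above, against 25.5% of all genes, while in Cfb they overlapped. The count hung on single mice, as did that of all genes passing as higher. Without shH2afy replicate 1, 0 members passed, with 2 of 16665 genes. Only 1 member passed without shH2afy replicate 2 (470 of 16537 genes), shH2afy2 replicate 1 (129 of 16914) or shH2afy2 replicate 3 (61 of 16821). Without shH2afy2 replicate 2, 9 members passed, with 1400 of 16825 genes. The log2 fold change of C3ar1 was 3.86 there, against 3.25 with all mice.

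**Figure D3:**
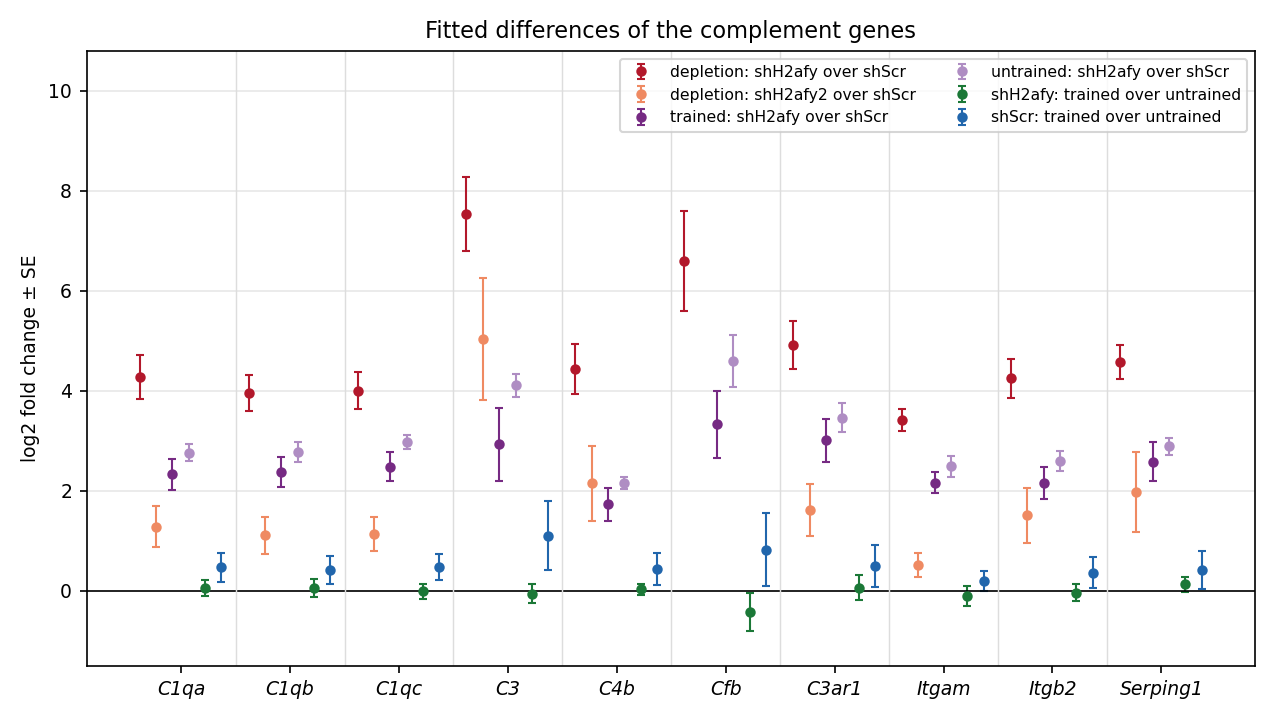
Log2 fold change of each complement gene with its SE (edgeR) in 6 comparisons, each point the first named group over the second. The shH2afy over shScr points lie above 0 in every gene, from 1.73 to 7.54, with the Cfb point of the depletion experiment resting on 2 shScr counts, while the points for training lie between -0.43 and 1.10.

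In the fear conditioning experiment all 10 members were higher in the libraries labelled shH2afy than in the shScr libraries, in trained and in untrained mice. In trained mice C3 had 236, 182 and 189 CPM in the shH2afy libraries, against 7.08, 56.6 and 15.8 CPM in the shScr libraries (fold change 7.62, adjusted p = 0.0183, edgeR). In untrained mice it had 159.6, 205 and 273 CPM, against 10.9, 11.2 and 14.8 CPM (fold change 17.3, adjusted p = 8.1e-05, edgeR). The groups did not overlap in either state, and the call in trained mice was lost without shScr trained replicate 3 (adjusted p = 0.0636) or shH2afy trained replicate 1 (adjusted p = 0.0531, edgeR). The log2 fold change of 2.93 in trained mice was 4.14 without shScr trained replicate 2, the highest of its group.

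C1qa had 279, 289 and 232 CPM in shH2afy trained mice, against 31.2, 74.2 and 54.0 CPM in shScr trained mice (fold change 5.01, adjusted p = 0.00228, edgeR). It had 206, 253 and 318 CPM in shH2afy untrained mice, against 33.3, 41.0 and 40.3 CPM in shScr untrained mice (fold change 6.79, adjusted p = 9.58e-05, edgeR). Cfb, deep enough here to be measured, had 32.1, 21.9 and 17.8 CPM, against 0.433, 3.93 and 2.73 CPM in trained mice. In untrained mice Cfb had 16.4, 49.0 and 31.6 CPM, against 0.856, 0.981 and 2.16 CPM, the largest fold change of the members at 24.3. The smallest was that of C4b, at 3.32 in trained and 4.46 in untrained mice.

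All 10 members passed as higher in trained mice, against 22.8% of 15703 genes (a fold change above 1.2 with an adjusted p under 0.05, edgeR), and all 10 in untrained mice, against 25.2% of 15799 genes. In both states the groups did not overlap in all 10 members with shH2afy above, against 30.1% of genes in trained and 30.6% in untrained mice. The median log2 fold change of the members was 2.43 in trained and 2.83 in untrained mice, against -0.01 and 0.0014 over all genes. With library totals in place of TMM the median of all genes shifted to 0.24 and 0.26, and the split of calls became 6048 higher and 1077 lower in trained mice, against 3583 and 2895 with TMM, and 6455 higher and 1060 lower in untrained mice, against 3984 and 2921 with TMM. All 10 members still passed as higher. Homeostatic microglial markers passed as higher in 11 of 12 (trained) and 12 of 12 (untrained), at a summed 875 to 1256 CPM in the 6 libraries labelled shH2afy, against 281 to 410 CPM in the 6 shScr libraries, as did 8 of 8 reactive astrocyte markers in both states (1632 to 1962 CPM, against 282 to 566 CPM), while CA1 neuron markers passed as lower in 5 of 7 in both states, at 1319 to 1784 CPM, against 3207 to 3632 CPM. The monocyte, neutrophil and border macrophage list summed to 153 to 403 CPM, against 11.8 to 59.4 CPM, with 4 (trained) and 5 (untrained) of 8 tested passing as higher. T and NK cell genes summed to 16.7 to 31.5 CPM, against 2.72 to 10.9 CPM, with 4 and 6 of 6 passing as higher. B and plasma cell genes overlapped between the viruses, at 28.1 to 78.4 CPM, against 5.12 to 73.0 CPM, in trained mice. In untrained mice they summed to 8.72 to 22.8 CPM with shH2afy, against 14.1 to 26.0 CPM with shScr. The part of these cell types was not tested. Relative to the microglial markers, C1q in mice labelled shH2afy was 1.95 times (trained) and 2.26 times (untrained) that with shScr, with no overlap (exact permutation p = 0.1 each, the smallest possible).

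**Figure D4:**
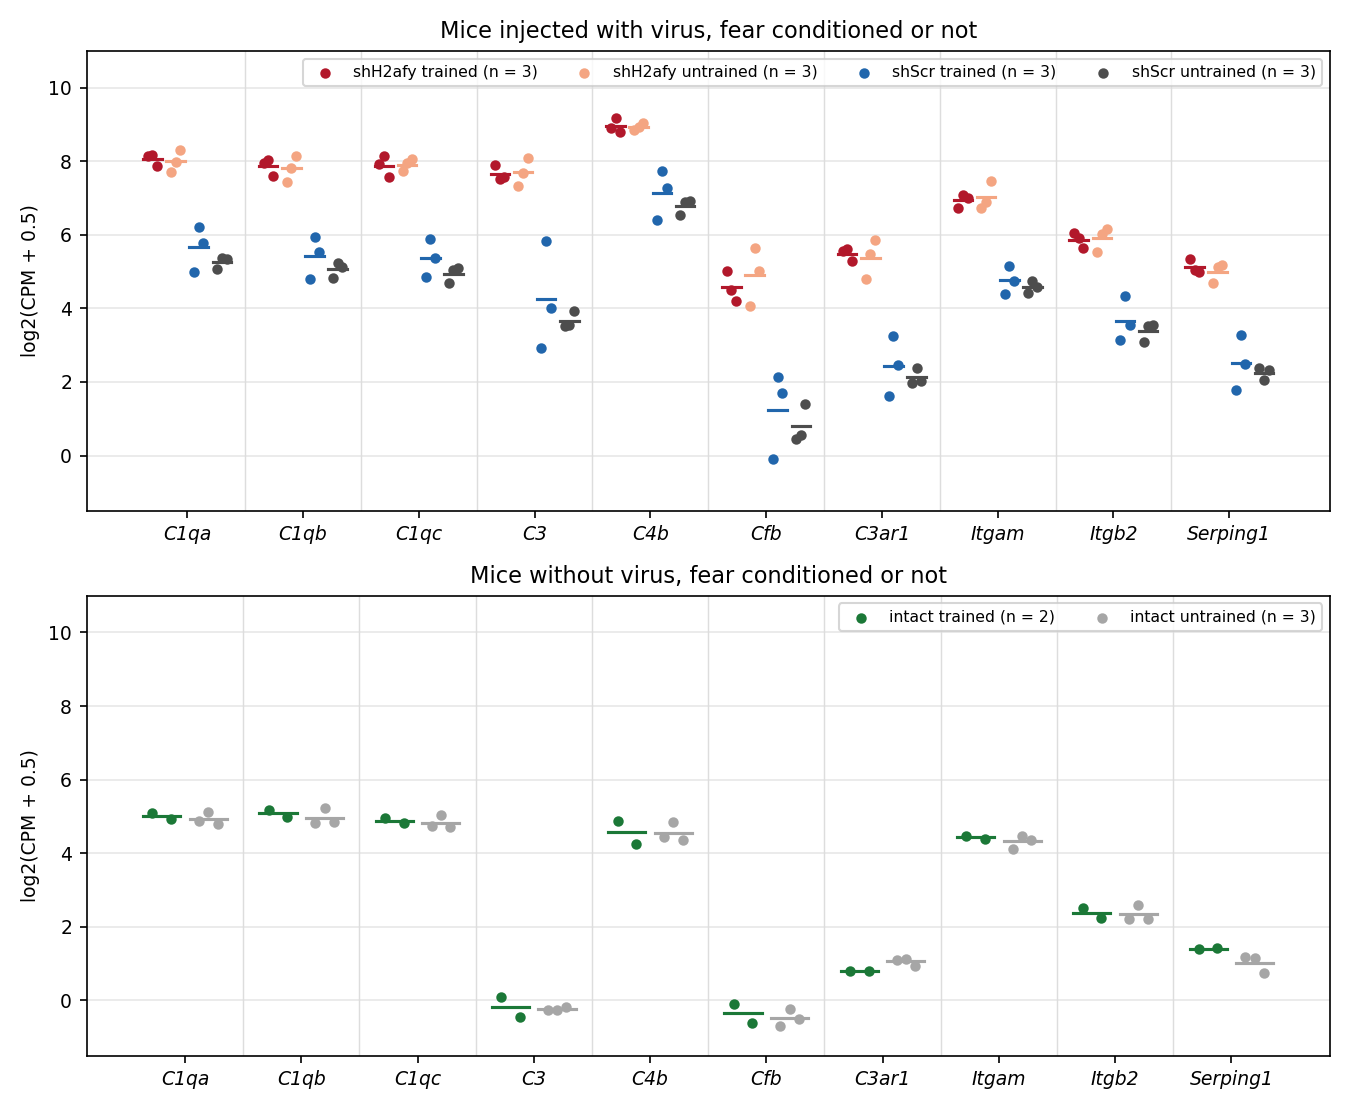
Level of each complement gene in every mouse, as log2(CPM + 0.5), with virus (top; shH2afy trained, shH2afy untrained, shScr trained and shScr untrained, n = 3 each) and in intact mice (bottom; trained, n = 2, and untrained, n = 3); points are mice and bars are means of the log values. In all 10 genes the libraries labelled shH2afy lie above the shScr libraries, and trained and untrained points of 1 virus overlap.

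Training itself, compared within the same libraries, was not followed by a call on any member. With shScr, C3 had 7.08, 56.6 and 15.8 CPM in trained mice, against 10.9, 11.2 and 14.8 CPM in untrained mice (log2 fold change 1.10 ± 0.69, adjusted p = 0.713, edgeR), so that the trained mice lay on both sides of the untrained. C1qa had 31.2, 74.2 and 54.0 CPM, against 33.3, 41.0 and 40.3 CPM (log2 fold change 0.47 ± 0.29, adjusted p = 0.711, edgeR). All 10 log2 fold changes were above 0, from 0.20 to 1.10, but adjusted p ran from 0.669 to 0.839 and in 0 of the 10 did the groups not overlap, against 7.22% of 15424 genes with trained above. The highest trained value was that of replicate 2 in each of the 10 members, and replicate 1 had the lowest. Without replicate 2 the fitted log2 fold change was above 0 in 5 of 10 members, and that of C3 was -0.13. By edgeR 0 genes passed, 1382 had an unadjusted p under 0.05, and DESeq2 passed 212, with 0 members.

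With the virus labelled shH2afy, C1qa had 279, 289 and 232 CPM in trained mice, against 206, 253 and 318 CPM in untrained mice (log2 fold change 0.05 ± 0.16, edgeR). C3 had 236, 182 and 189 CPM, against 159.6, 205 and 273 CPM (log2 fold change -0.06 ± 0.19, edgeR). Members lay on both sides of 0, from -0.43 to 0.13, with 5 of 10 above it, adjusted p at or above 0.998, and 0 of 10 without overlap, against 5.33% of 15866 genes with trained above and 4.43% with trained below. The edgeR test passed 0 genes here, 613 had an unadjusted p under 0.05, and DESeq2 passed 47, with 0 members. The difference of the training effects, shH2afy minus shScr, was tested as an interaction. It was below 0 for all 10 members, from -1.27 to -0.31, with an adjusted p of 0.9998 for each (edgeR) and 0 of 15997 genes passing (333 at an unadjusted p under 0.05, 0 by DESeq2). For C3 it was -1.18 ± 0.78, and 0.05 without shScr trained replicate 2, without which 4 of the 10 members were above 0.

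In intact mice 0 members passed after training. C1qa had 33.4 and 30.1 CPM in trained mice, against 28.8, 34.5 and 27.4 CPM in untrained mice. C3 had 0.566 and 0.236 CPM, against 0.334, 0.339 and 0.390 CPM. Serping1, with 2.14 and 2.18 CPM against 1.79, 1.72 and 1.17 CPM, and C3ar1, with 1.24 and 1.24 CPM against 1.65, 1.70 and 1.42 CPM, were the members whose groups did not overlap. Serping1 had a log2 fold change of 0.46 ± 0.20 (adjusted p = 0.267, edgeR) and C3ar1 of -0.36 ± 0.17 (adjusted p = 0.285, edgeR), where 20.3% of 15641 genes had trained above without overlap and 19.5% had trained below. Passing genes numbered 15 as higher (0.0959%, adjusted p under 0.01, edgeR) and 0 as lower, with 0 members, whose adjusted p ran from 0.267 to 0.941. C1q relative to the microglial markers differed 1.03-fold (exact permutation p = 0.8).

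The members also had similar patterns over the depletion libraries, differences between groups included. Across the 9 libraries of the depletion experiment, Pearson's r of log2(CPM + 0.5) between 2 members ran from 0.878 to 0.999 over the 45 pairs (median 0.970). These libraries share groups, so the correlations describe the whole pattern and not variation within a group. Among 11663 genes with a mean of at least 5 CPM, those most like C1qa were Adgre1, Cd86, Hcls1, Cd300lf and Aif1 (r from 0.997 to 0.999), all of them genes of macrophages, microglia or leukocytes. Those most like C3 were Parp3, H2-Q6, Tap1, Lgals3bp and Trp53inp1 (r from 0.982 to 0.988), of which Tap1 transports peptides for loading onto major histocompatibility complex class I. For C4b they were Itgax, Parp3, Klhdc7a, Ifitm3 and Osmr (r from 0.982 to 0.987). Itgax (CD11c), the chain of complement receptor 4, averaged 75.9 CPM with shH2afy, 7.60 CPM with shH2afy2 and 1.00 CPM with shScr.

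A list of 42 other complement genes shows how far the pattern reached. With shH2afy against shScr in the depletion experiment, 8 of the 27 tested passed as higher, against 10.5% of all genes, and 0 as lower, against 194 of 16179 genes, at a median log2 fold change of 0.56, against 0.0072 over all genes. C5ar1, the receptor for C5a, had a log2 fold change of 4.15. The proteases of C1 were among them, C1ra at 4.76 and C1s1 at 4.96, along with Itgax (6.27) and Cd93 (1.25). Of 7 terminal components, which build the membrane attack complex, 1 was deep enough to test and did not pass, and their summed level was 2.62 to 3.74 CPM with shH2afy, against 2.49 to 2.84 CPM with shScr. With shH2afy2 against shScr, 0 of 24 passed, as did 0 of all 15609 genes, and with shH2afy against shH2afy2, 5 of 27 passed as higher, against 7.96% of all genes.

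In the fear conditioning experiment, for libraries labelled shH2afy against shScr, 11 of 31 other complement genes passed as higher in trained mice, against 22.8% of all genes, and 16 of 33 in untrained mice, against 25.2%. As lower, 5 of 31 passed in trained mice, against 18.4% of all genes, and 6 of 33 in untrained mice, against 18.5%, shares near those of all genes. Those that passed as lower were Cd55, Csmd1, Sez6, Sez6l and Sez6l2 in both states and Cd46 in untrained mice.

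At the chromatin level, the loci were read for domains that the authors called per library against input, with 51899 to 95952 domains covering 226 to 646 Mb per library. The ChIP used nuclease-digested chromatin of whole CA1 from trained or untrained mice, so which cell types carried a domain was not measured. It was done at 30 min and 1 h (mH2A1 and mH2A2) and at 6 h (mH2A1). Another mH2A1 antibody was used at 30 min than later, so that times were not compared. The labels of the 1 h untrained mH2A1 libraries name mH2A1 in the title and mH2A2 as the antibody, and values at 1 h are those of the titles. At 6 h, the time with most libraries (5 trained, 5 untrained), 1 domain of 119000 to 119800 bp in trained mice and of 119000 to 120200 bp in untrained mice covered C1qa, C1qb and C1qc whole in each of the 10 libraries, at a log2 enrichment of 1.36 to 1.45 in trained and 1.32 to 1.46 in untrained mice. C3 was covered whole in all 10 as well, within domains of 29200 to 51800 bp in trained and 31600 to 33200 bp in untrained mice. The median gene of 21911 protein-coding genes had no cover, and the mean was 21.6% in trained and 22.2% in untrained mice.

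Itgb2 was covered to 99.4% ± 1.40 in trained and 100% in untrained mice at 6 h (SD, n = 5 each), C4b to 95.6% ± 7.27 and 93.8% ± 5.65, and Itgam to 77.7% ± 3.38 and 77.9% ± 5.14. Serping1 (60.8% ± 18.5 and 66.2% ± 30.8), C3ar1 (17.6% ± 23.6 and 35.9% ± 22.1) and Cfb (17.2% ± 15.7 and 21.1% ± 21.4) were covered less and unevenly. The 2 kb before the start of Cfb were covered to 72.0% in trained and 93.2% in untrained mice, more than its gene body.

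**Figure D5:**
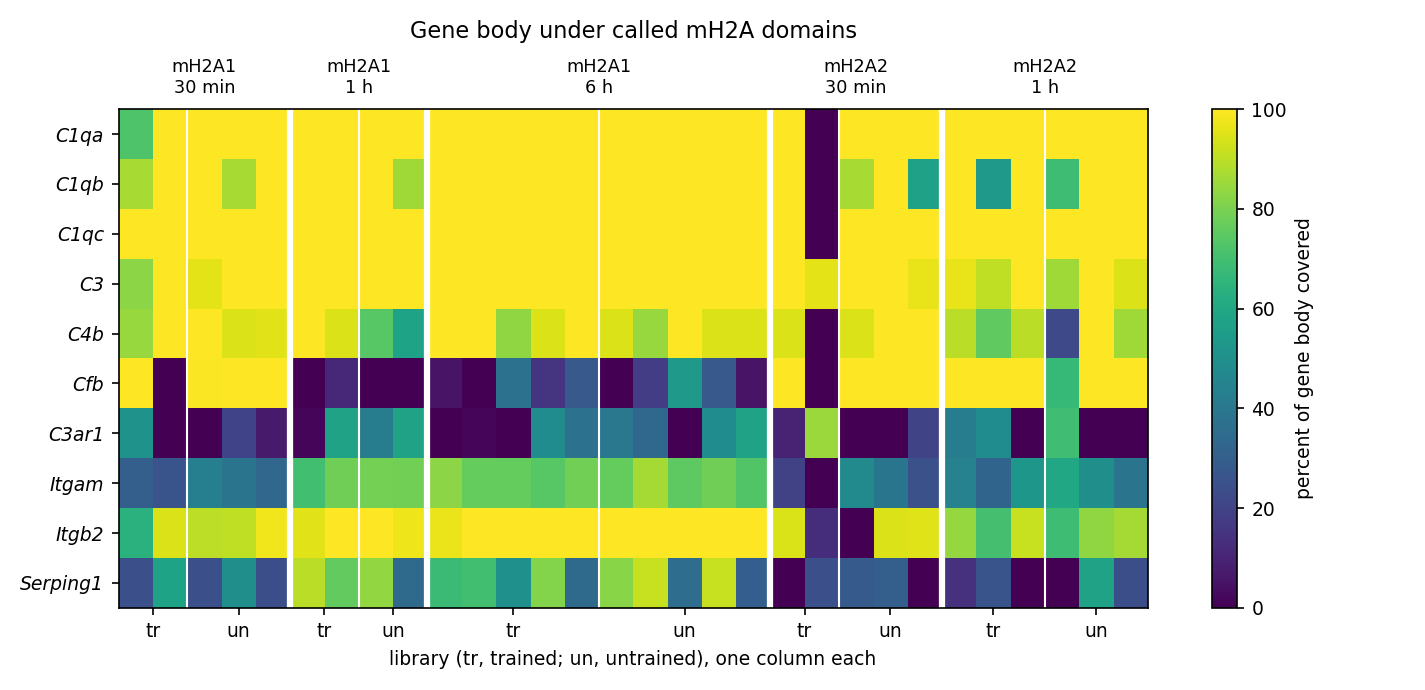
Percent of each complement gene body under called mH2A domains, 1 column per ChIP library (30 in all), by antibody and time, with trained (tr) left of untrained (un). C1qa, C1qb, C1qc and C3 are at 100% in all 10 libraries at 6 h, Cfb and C3ar1 are low there, and 1 mH2A2 library of trained mice at 30 min lacks cover over 6 members.

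Starts were counted as covered when at least 50% of the 1 kb around them lay in a domain in 2 or more libraries. For mH2A1 this held for 7 of 10 members in trained mice (9.33% of all genes) and 8 in untrained mice (22.0%) at 30 min. At 1 h it held for 7 (14.7%) in trained and 6 (11.5%) in untrained mice, and at 6 h for 10 (23.1%) and 8 (24.0%). For mH2A2 it held for 1 in trained (7.77%) and 9 in untrained mice (24.1%) at 30 min, and for 8 in trained (23.5%) and 8 in untrained mice (27.3%) at 1 h. The trained 30 min groups hold 2 libraries each, and 1 of the mH2A2 libraries had no domain over 6 of the 10 gene bodies. In groups of 2 the rule asked for every library, but in groups of 3 or 5 it did not. Counts of trained and untrained mice at 30 min are therefore at unlike thresholds, while each share of all genes follows the rule of its own group. When only domains with a log2 enrichment of at least 1 counted, 0 members were covered in untrained mice for mH2A1 at 30 min (0.0502% of all genes), mH2A2 at 30 min (0.0639%) and mH2A1 at 1 h (0.137%), 3 for mH2A2 at 1 h (4.97%) and 6 for mH2A1 at 6 h (7.43%).

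After training, 0 members passed for mH2A1 cover at 6 h. C1qa, C1qb, C1qc and C3 were at 100% in every library, inside domains longer than the genes, so cover could not show a difference there. Among the others gene body cover differed by at most 18.3 points, for C3ar1 (exact permutation p = 0.27), and 0 members had an unadjusted p under 0.05, against 1.47% of 21911 genes. No gene of the 21911 had an adjusted p under 0.05, with 322 under 0.05 unadjusted. The widest gap of a member at 6 h lay before the start of C3ar1, at 72.8% in trained and 17.6% in untrained mice (exact permutation p = 0.0556, adjusted p = 1 over all genes). The 30 min and 1 h groups, with 2 or 3 libraries, cannot reach a p below 0.1. For mH2A1 at 30 min the 2 kb before the start of C3 were covered to 38.2% in trained and 100% in untrained mice, and those of Cfb to 17.05% and 86.7% (exact permutation p = 0.1 each, the smallest possible). Of the members, C3 and Cfb alone reached that p, and the share of all genes that did was not counted. Over all genes the mean of this cover was also lower, at 14.9% in trained and 21.5% in untrained mice. That of Itgam was higher in trained mice, at 100% against 86.7%. For mH2A1 at 1 h those of C3ar1 were covered to 94.0% in trained and 0% in untrained mice, where 2 against 2 libraries allow no p below 0.333 (exact permutation).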

How the data were processed

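RNA was measured as counts of reads per gene, which the authors deposited as raw count tables made with STAR and featureCounts. The fear conditioning table with virus counted ribosome-depleted RNA over whole transcripts at another sequencing centre, so levels were never compared across tables. Chromatin domains were called by the authors per ChIP library against input on mm10 (Bowtie2 alignments, epic2 per the methods and SICER per the submitters' processing notes). The deposited domain tables give the counts in ChIP and input, an adjusted p-value (FDR, at most 0.05 in these files) and the log2 enrichment.

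The members and gene lists were chosen with earlier results of these data known. Genes were filtered (filterByExpr, minimum count 10, minimum total 15) and tested with edgeR 4.0.16 (quasi-likelihood, TMM, R 4.3.3) within the groups compared, with Benjamini-Hochberg adjustment over all genes tested. Calls were made past a fold change of 2 at an adjusted p under 0.01 in the depletion experiment, past 1.2 at 0.05 in the fear conditioning experiment with virus, and at 0.01 in intact mice and 0.05 for the interaction with no fold limit. The SE is the log2 fold change divided by the root of the F statistic. The test was checked on counts simulated with the same fixed spread for every gene and no outlying mouse, so the check does not cover the spread between these mice. Named genes were the 10 members, the 5 genes most like C1qa, C3 and C4b, and up to 6 other complement genes with the smallest adjusted p per comparison, of which 1 is not reported here, and others named were chosen after their values were seen. Cover was the percent of a gene body, of 2 kb before its start or of the 1 kb around the start that lay in domains, and was compared by exact two-sided permutation tests over libraries, adjusted over all 21911 genes. An adjustment over the members alone, planned for the cover, is not given. Alternatives were RLE size factors, library totals, DESeq2 1.42.0, no filter, a replicate block, leaving out each library, and stricter domains. Replicate numbers were checked for pairing, which the study's methods do not describe. In shScr mice, the deviations of trained and untrained libraries with the same number had weak positive correlations (0.167, 0.189 and 0.248). In shH2afy mice such correlations ran from -0.149 to 0.508, so these values do not establish a pairing. The block changed no call in shScr mice. Columns of the authors' own comparisons were not used.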

Additional observations from a re-analysis of the deposited data

Results flagged for a closer look

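Cover by mH2A1 domains at 6 h was searched for single libraries far from the rest of their group of 5, in 40 groups of values, of which 23 held 5 equal values. Of the other 17, 3 stood apart. Chance gives about 1 in 20 for values that vary freely, a rate that does not carry over to these, where the other 4 libraries were tied at 0% or 100%. In trained mice, 1 library had 96.9% of the gene body of Itgb2 covered, against 100% in the other 4. In untrained mice, 1 library had 88.05% of the 2 kb before the start of C3ar1 covered, against 0% in the other 4. In untrained mice, 1 library had 65.9% of the 2 kb before the start of Cfb covered, against 100% in the other 4. The RNA groups hold 2 or 3 libraries each and were not searched in this way.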

How the results depend on the processing

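With shH2afy against shScr in the depletion experiment, 1885 genes passed, 1146 with a replicate block and 947 to 2364 when 1 library was left out. Among these were 9 to 10 members, the one lost being Cfb. That count takes in C3 and Cfb, which entered the test through the shH2afy mice. With shH2afy2 against shScr, where 0 passed, DESeq2 passed 122 genes and 1 member, edgeR without a filter 327 genes and 8 members, and leaving out 1 library 0 to 2 genes. With shH2afy against shH2afy2, 1557 genes and 5 members passed, 2610 and 10 without a filter, 10 members with the replicate block, and 2 to 2090 genes and 0 to 9 members without 1 library. After training, DESeq2 passed 212 genes with shScr and 47 with shH2afy (edgeR 0 in both, 0 to 1 with shScr without 1 library). In intact mice 15 passed, 472 by DESeq2, 51 without a filter, 0 with the replicate block and 1 to 416 without 1 library. Samples of these comparisons share only a number, and outside training with shScr same-numbered libraries did not deviate together in every pair. Both virus comparisons kept all 10 members as higher under each alternative, apart from C3 in trained mice, as given above, with 4719 to 6775 genes (trained) and 5838 to 7294 genes (untrained) without 1 library. Library totals put the median log2 fold change of all genes at 0.165 with shH2afy against shScr and at 0.165 with shH2afy against shH2afy2, against 0.0072 and 0.0036 with TMM.

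Log2 fold changes turned in sign when 1 library was left out for H2afy2 between the viruses (-0.0945 to 0.149 untrained, -0.0418 to 0.32 trained) and for training in shScr mice (C3 -0.13 to 1.55), in shH2afy mice (C1qa -0.0808 to 0.22, C3 -0.22 to 0.15), in intact mice (C1qa -0.0068 to 0.17, C3 -0.58 to 0.67) and in the interaction (C3 -1.63 to 0.0486). The log2 C1q ratio in intact mice ran from -0.0159 to 0.108. None of these had passed. Where only domains with a log2 enrichment of at least 1 counted, starts covered in untrained mice numbered 0 for mH2A1 at 30 min, 0 for mH2A2 at 30 min, 0 for mH2A1 at 1 h and 3 for mH2A2 at 1 h, as given above with the shares of all genes. The cause of these changes was not tested.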
